A study of Homo sapiens with 6 samples.

Results

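Overlapping gene models at 2 loci, which share exons on the same strand, are described here, 5 genes in all among the 52807 rows of a gene expression table from the human large cell lung cancer line NCI-H460. PTP4A1 and a gene known only by its Ensembl identifier, ENSG00000285976, overlap on chromosome 6. POC1B, GALNT4 and the readthrough gene POC1B-GALNT4, which joins the start of POC1B to GALNT4, overlap on chromosome 12. The genes were chosen by name, after their measured levels were known: ENSG00000285976 and POC1B-GALNT4 stood out in comparisons of sg2 with the other groups, and the rest are the genes that share exons with them. All 5 reached the mean of 1 FPKM (fragments per kilobase of transcript scaled to the mapped fragments of each library) that 8887 genes reached.

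The cells expressed KRAB-dSpCas9, a nuclease-dead Cas9 fused to a transcriptional repressor domain, from a lentiviral vector that also carried a guide RNA. The groups were sg2 and sg1, 2 guides against CPT1, and sgNTG, a nontargeting guide, with 2 libraries each. CPT1 is the mitochondrial carnitine palmitoyltransferase that commits long-chain fatty acids to oxidation. All 3 groups carried the repressor and were kept in 2 μg/ml puromycin, started 48 hours after infection, and by the labels the sg2 and sg1 cells were CPT1 knockdown and the sgNTG cells wild type. The CPT1 isoforms were not analysed here, so repression of the target was not checked. Whether replicate libraries stem from separate cultures is not stated, so p-values cover only how far these libraries differ, a spread that may be technical. The libraries summed to 251704 to 260500 FPKM each. The epithelial keratins KRT18 and KRT19 measured 87.4 to 102 FPKM and 140 to 179 FPKM over the 6 libraries, the mesenchymal genes VIM and FN1 628 to 696 FPKM and 988 to 1040 FPKM, and the epithelial cadherin CDH1 at most 0.105 FPKM.

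PTP4A1 encodes a small membrane-anchored protein tyrosine phosphatase, also called PRL-1, which binds the CNNM magnesium transport proteins. POC1B encodes a WD40-repeat protein of centrioles. GALNT4 encodes a Golgi enzyme that attaches the first sugar of mucin-type O-glycans to proteins. Genes that share exons on the same strand pose a problem of assignment in RNA sequencing: a read that falls within a shared exon fits both models, and only reads on own exons or own splice junctions tell them apart.

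In GENCODE 29 (hg38), PTP4A1 spans chr6:63521746-63583377 on the plus strand with 6 transcripts, and ENSG00000285976, named AL135905.2 there, spans chr6:63572012-63583587 with 1 transcript of 5088 bases. Their annotated starts lie 50266 bases apart. They share 4170 exon bases, which is 79.0% of the merged exons of PTP4A1 and 82.0% of those of ENSG00000285976. What ENSG00000285976 has of its own is 918 bases, made up of its 708-base first exon and 210 bases at its 3′ end. PTP4A1 has 1111 bases of its own. Its longest transcript has 541 of them, in 3 upstream exons of 81, 266 and 194 bases, and 2 of its protein-coding transcripts have 0 bases outside ENSG00000285976.

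The same annotation places the whole 519-base coding sequence of PTP4A1, 173 residues long, inside the ENSG00000285976 transcript, starting at base 1154. The ENSG00000285976 transcript also carries the same consensus coding sequence (CCDS) identifier as a PTP4A1 transcript that encodes 173 residues. Whether that transcript yields a protein other than PTP4A1 was not tested. The coding sequence annotated for ENSG00000285976 itself is nevertheless another one. It covers bases 670 to 801 of the transcript, encodes 44 residues, and ends 349 bases upstream of the PTP4A1 start codon, the stop codon of the short frame counted apart.

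Splice junctions show how little separates the models, and 3 junctions of the PTP4A1 locus are given with the last 15 bases of the upstream exon in lower case and the first 15 bases of the shared exon in capitals, from the GENCODE 29 transcripts. All of them end in the same acceptor exon, which starts at base 63576436 of chromosome 6.
ENSG00000285976 exon 1 to 2: agtaaacatattcctCAATTCTGTGGTGTT
PTP4A1 longest transcript, exon 3 to 4: tagctgtacatggagCAATTCTGTGGTGTT
PTP4A1 short processed transcript, exon 2 to 3: gcaggcagcaggcagCAATTCTGTGGTGTT
The capitals are identical in the 3 lines, so a read that lies wholly in the shared exon carries nothing that assigns it to either gene.

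POC1B spans chr12:89419718-89526024 on the minus strand, with 14 transcripts and 8746 merged exon bases. GALNT4 lies at chr12:89519408-89524806 on the same strand as a single exon of 5399 bases, inside the span of POC1B, and shares 0 exon bases with it. POC1B-GALNT4 spans chr12:89519408-89526262 with 2 transcripts and 5500 merged exon bases, of which 5033 are GALNT4 exon and 229 are POC1B exon, 95.7% in all. Only 238 bases belong to the readthrough model alone, against 366 bases for GALNT4, 93.2% of which is shared. POC1B shares only 2.6% of its exon bases.

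GALNT4 lies in the intron between exons 2 and 3 of POC1B, and the readthrough joins the first 2 exons of the POC1B end to the GALNT4 exon at an acceptor within it. Its long transcript encodes 575 residues, against 578 for GALNT4, and the last 1626 coding bases, 542 residues, are the same in both. The short readthrough transcript uses another acceptor in the GALNT4 exon, at base 89523673. The sequences around the acceptor of the long transcript show its splice, with the bases after the junction in capitals.
POC1B exon 2 to 3: acggcaagcaacttgCTACTGCTTCTTGGG
POC1B-GALNT4 exon 2 to 3: acggcaagcaacttgGAGCCGGCCGTGCCA
GALNT4 across the same position, unspliced: ttcatgcctccgcagGAGCCGGCCGTGCCA
The readthrough junction of the long transcript joins the donor side of the POC1B junction to the acceptor side that GALNT4 carries as continuous exon.

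**Figure D1:**
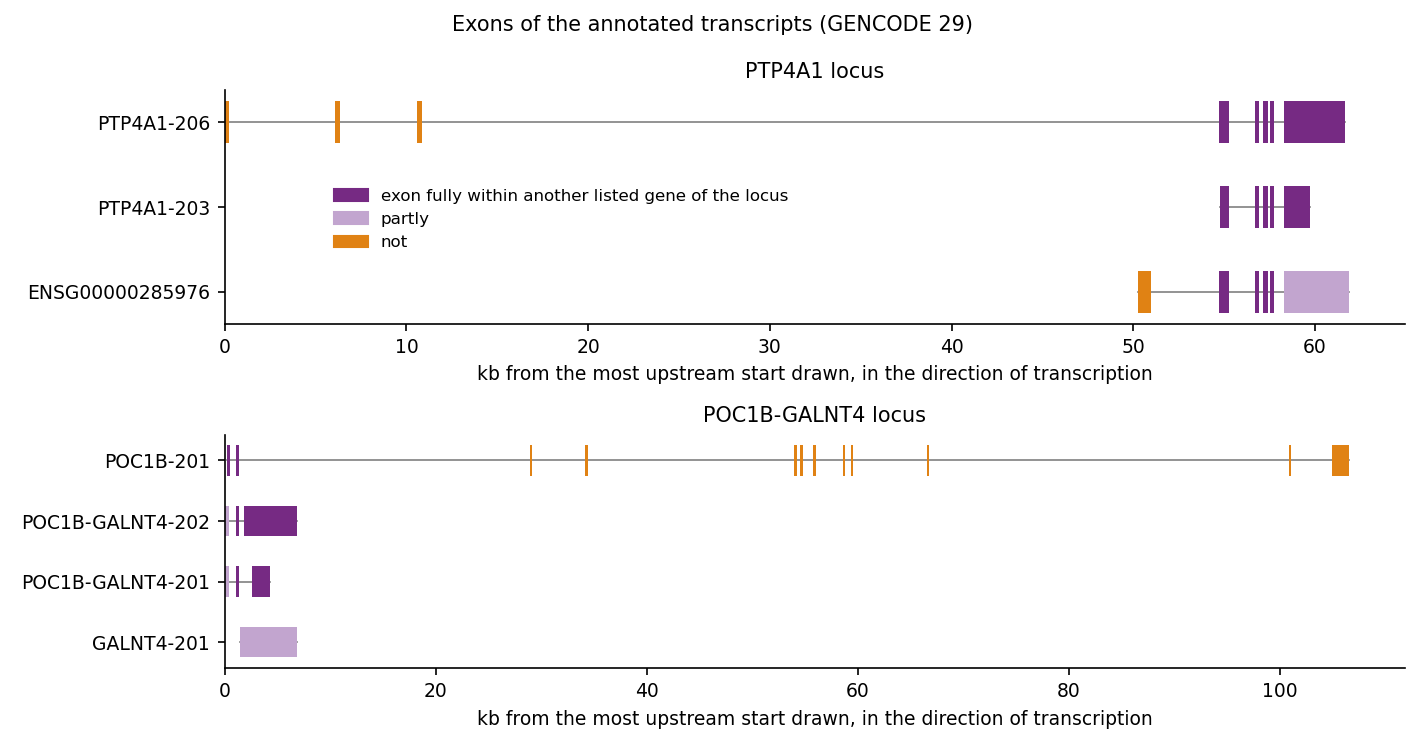
Exons of selected GENCODE 29 transcripts drawn along the direction of transcription, in kb from the most upstream start drawn for each locus. Dark boxes are exons wholly within another gene of the locus, light boxes partly shared and orange boxes not shared; exons under 0.25 kb are drawn at that width. The longest PTP4A1 transcript and ENSG00000285976 differ in their upstream exons and in 210 bases at the 3′ end of ENSG00000285976. The shorter PTP4A1 transcript drawn has 0 bases outside ENSG00000285976. POC1B-GALNT4 has 2 short upstream exons that GALNT4 lacks, and GALNT4 has 366 bases at its 5′ end outside POC1B-GALNT4.

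The RefSeq promoter table (GRCh38.p14) lists 4 starts for PTP4A1. The 250 bases before 2 of them are shown because they lie on the plus strand upstream of the 2 annotated first exons, at chr6:63521496-63521745, directly before the GENCODE start of PTP4A1, and at chr6:63571549-63571798, whose start lies 213 bases before that of ENSG00000285976. The first is called distal below, although another listed PTP4A1 start, at base 63516440, lies farther upstream. CG dinucleotides are in capitals.
PTP4A1 distal start: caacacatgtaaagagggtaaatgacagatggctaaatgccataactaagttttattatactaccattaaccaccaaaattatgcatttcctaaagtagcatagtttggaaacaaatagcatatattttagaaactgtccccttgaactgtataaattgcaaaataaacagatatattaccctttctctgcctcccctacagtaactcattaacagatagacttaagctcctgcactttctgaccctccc
PTP4A1 start near ENSG00000285976: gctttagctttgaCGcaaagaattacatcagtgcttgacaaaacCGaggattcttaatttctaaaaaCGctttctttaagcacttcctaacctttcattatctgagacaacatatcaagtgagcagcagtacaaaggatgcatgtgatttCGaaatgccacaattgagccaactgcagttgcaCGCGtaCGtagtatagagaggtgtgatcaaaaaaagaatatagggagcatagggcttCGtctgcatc
The distal window holds 0 CG dinucleotides and the other 8, against a median of 11 over the 35116 windows of 250 bases in the table. A further PTP4A1 start, 468 bases inside the first exon of ENSG00000285976, follows a window with 29. The motif TATAAA, searched on both strands, is in the distal window and in that last window, and in 10.7% of all windows. The motif GGGCGG, searched likewise, is in the last of these windows only, and in 42.6% of all. The window of the start farthest upstream holds 1 CG dinucleotide and neither motif. For POC1B-GALNT4 the window before its GENCODE start, chr12:89526263-89526512, holds 7 CG dinucleotides and neither motif. That is the start of its short transcript. Another listed POC1B-GALNT4 start, at base 89526047, is also the listed start of POC1B, and its window holds 15 CG dinucleotides and neither motif.

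PTP4A1 and ENSG00000285976 showed mirrored levels. PTP4A1 measured 153 and 140 FPKM in the sg2 libraries, 36.9 and 69.4 FPKM in the sg1 libraries, and 6.52 and 20.0 FPKM in the sgNTG libraries. ENSG00000285976 measured 23.1 and 33.2 FPKM in the sg2 libraries, 124 and 98.5 FPKM in the sg1 libraries, and 163 and 157 FPKM in the sgNTG libraries. The 3 groups did not overlap for either gene, and they stood in opposite order: sg2 was highest and sgNTG lowest for PTP4A1, and sg2 was lowest and sgNTG highest for ENSG00000285976.

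Summed, the pair measured 176 and 173 FPKM in the sg2 libraries, 161 and 168 FPKM in the sg1 libraries, and 169 and 177 FPKM in the sgNTG libraries. The coefficient of variation of the sum over the 6 libraries was 3.51%, against 87.7% for PTP4A1 and 60.4% for ENSG00000285976. The sgNTG libraries enclosed the sg2 libraries, and both sg1 libraries lay below the others. Each FPKM was also weighted by the merged exon length of its gene. The weighted sums were 178 and 175 in the sg2 libraries, 159 and 167 in the sg1 libraries, and 166 and 174 in the sgNTG libraries. The merged exons of PTP4A1 are longer than any of its transcripts, so these sums need not follow assigned fragments.

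The division of that sum differed between libraries. PTP4A1 held 86.8% and 80.8% of it in the sg2 libraries, 23.0% and 41.3% in the sg1 libraries, and 3.85% and 11.3% in the sgNTG libraries. The mean share was 83.8% ± 4.27 with sg2, 32.1% ± 13.0 with sg1 and 7.57% ± 5.26 with sgNTG (SD, n = 2 each). ENSG00000285976 held the rest.

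**Figure D2:**
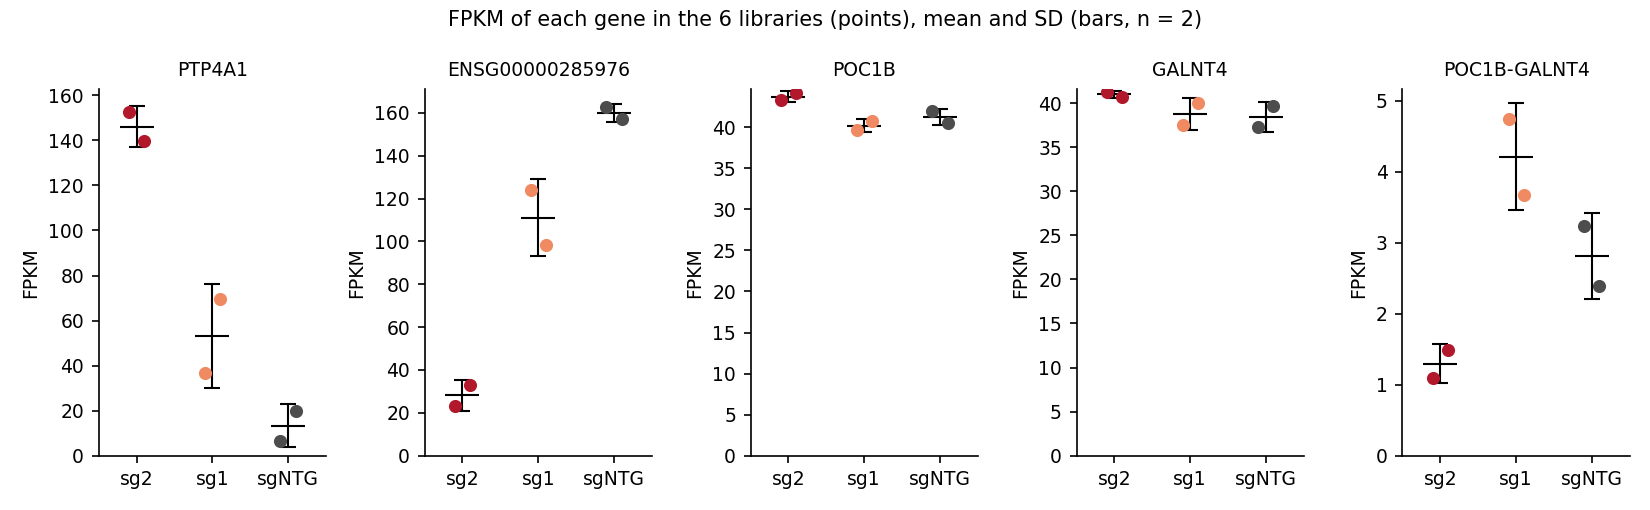
FPKM of the 5 genes (vertical axis, each panel with its own scale from 0) with sg2, sg1 and sgNTG; points are libraries, and horizontal marks and bars are the mean and SD of 2 libraries. PTP4A1 and ENSG00000285976 run in opposite order over the groups, POC1B and GALNT4 stay between 37.3 and 44.2 FPKM, and POC1B-GALNT4 stays below 5 FPKM.

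On the log2(FPKM + 1) scale, PTP4A1 differed by 3.55 (SE 0.488) between sg2 and sgNTG, by 1.51 between sg2 and sg1, and by 2.04 between sg1 and sgNTG. The differences of ENSG00000285976 were -2.49 (SE 0.172), -1.96 and -0.53 in the same comparisons. Those of the summed pair were 0.01 (SE 0.0381), 0.08 and -0.08. The values that involve sg2 chose these genes, so they are given as a description, without p, and the 3 comparisons share libraries.

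Of the comparisons, sg1 with sgNTG was not used in the choice, and there the genes were tested with limma across all 8887 genes. At an adjusted p of 0.05, 1 gene of the table passed (0.0113%) and 0 of the 5 genes did. An unadjusted p under 0.05 was reached by 3 of the 5, against 9.92% of all tested genes. The 3 were PTP4A1, ENSG00000285976 and POC1B-GALNT4. These sg1 and sgNTG libraries also entered the comparisons that chose the genes, and PTP4A1 and ENSG00000285976 mirror each other. Nothing is read from this count. PTP4A1 averaged 53.1 ± 23.0 FPKM with sg1 and 13.3 ± 9.52 FPKM with sgNTG (SD, n = 2 each), a log2 difference of 2.04 (SE 0.488, limma adjusted p = 0.315), higher in 2 of 2 sg1 libraries. ENSG00000285976 averaged 111 ± 17.9 FPKM with sg1 and 160 ± 4.08 FPKM with sgNTG (SD, n = 2 each), a log2 difference of -0.53 (SE 0.172, limma adjusted p = 0.413), lower in 2 of 2 sg1 libraries. An exact permutation test of 2 libraries against 2 cannot give a p below 0.333.

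The libraries of both loci were counted for overlap between groups. Between sg1 and sgNTG, 3 of the 5 genes had libraries that did not overlap, against 41.1% of all tested genes. Between sg2 and sgNTG it was 5 of 5, beside 41.1% of all genes, and between sg2 and sg1 5 of 5, beside 48.6%. Calls by limma at an adjusted p of 0.05 were part of how the genes were chosen, and nothing is read from them. They were 1 of 5 between sg2 and sgNTG (ENSG00000285976; 0.0225% of the table) and 2 of 5 between sg2 and sg1 (ENSG00000285976 and POC1B-GALNT4; 1.29% of the table), and 0 of 5 in both comparisons with no filter on low values, with no variance trend or with the replicate block. The overlap counts that involve sg2 come from the same comparisons, and the count between sg1 and sgNTG uses libraries that entered them.

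Libraries of the same guide also divided the PTP4A1 locus unequally. Between the 2 sgNTG libraries PTP4A1 differed by 1.48 on the log2(FPKM + 1) scale, and 19 of 8887 tested genes (0.214%) differed by more. Between the 2 sg1 libraries it differed by 0.893, exceeded by 66 genes (0.743%), and between the 2 sg2 libraries by 0.127, exceeded by 35.6% of genes. ENSG00000285976 differed most between the sg2 libraries, by 0.503, where its level was lowest. Both genes differed most between libraries in the group where their own level was lowest. Over single libraries, the log2 difference of PTP4A1 between sg1 and sgNTG ran from 0.85 to 3.23 in the 4 possible pairings. In such bulk libraries a lower level per cell and fewer expressing cells cannot be told apart.

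**Figure D3:**
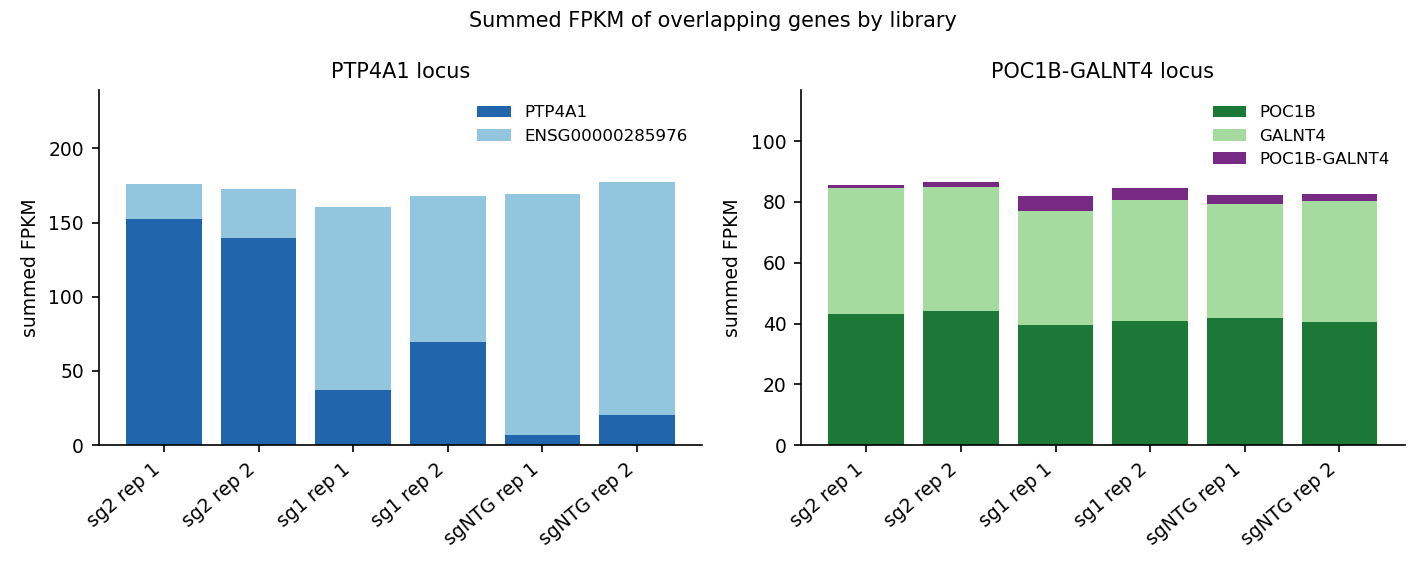
Summed FPKM (vertical axis, from 0) of the genes of each locus in each of the 6 libraries, with sg2 left, sg1 in the middle and sgNTG right; colours are genes. The bars of the PTP4A1 locus stand between 161 and 177 FPKM while the PTP4A1 part runs from 6.52 to 153 FPKM, and the bars of the POC1B-GALNT4 locus stand between 81.9 and 86.4 FPKM.

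At the POC1B-GALNT4 locus the readthrough model was the gene that varied most. POC1B-GALNT4 measured 1.10 and 1.50 FPKM in the sg2 libraries, 4.75 and 3.68 FPKM in the sg1 libraries, and 3.24 and 2.39 FPKM in the sgNTG libraries. The groups did not overlap, with sg1 highest and sg2 lowest. Its log2 difference was -0.73 (SE 0.164) between sg2 and sgNTG and -1.18 between sg2 and sg1, the comparisons that chose it. Between sg1 and sgNTG it was 0.45 (SE 0.164, limma adjusted p = 0.437), higher in 2 of 2 sg1 libraries.

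GALNT4, the gene with which the readthrough shares most of its exon, measured 41.3 and 40.7 FPKM in the sg2 libraries, 37.5 and 40.1 FPKM in the sg1 libraries, and 37.3 and 39.6 FPKM in the sgNTG libraries. Both sg2 libraries lay above the other 4, and sg1 and sgNTG overlapped. The log2 difference of GALNT4 was 0.09 (SE 0.0523) between sg2 and sgNTG and 0.08 between sg2 and sg1. Between sg1 and sgNTG it was 0.01 (SE 0.0523, limma adjusted p = 0.960).

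POC1B, the centriole gene that gives the readthrough its first exons, measured 43.3 and 44.2 FPKM in the sg2 libraries, 39.6 and 40.7 FPKM in the sg1 libraries, and 41.9 and 40.5 FPKM in the sgNTG libraries. Its sg2 libraries too were the highest, and sg1 and sgNTG overlapped. The log2 difference was 0.08 (SE 0.0421) between sg2 and sgNTG and 0.12 between sg2 and sg1. Between sg1 and sgNTG it was -0.04 (SE 0.0421, limma adjusted p = 0.828).

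The readthrough made up 2.60% and 3.54% of the sum of GALNT4 and POC1B-GALNT4 in the sg2 libraries, 11.2% and 8.41% in the sg1 libraries, and 7.99% and 5.68% in the sgNTG libraries. That sum was 42.4 and 42.2 FPKM in the sg2 libraries, 42.3 and 43.8 FPKM in the sg1 libraries, and 40.5 and 42.0 FPKM in the sgNTG libraries. Its coefficient of variation over 6 libraries was 2.45%, against 49.7% for POC1B-GALNT4 and 4.22% for GALNT4. The sum over all 3 genes was 85.6 and 86.4 FPKM in the sg2 libraries, 81.9 and 84.5 FPKM in the sg1 libraries, and 82.4 and 82.6 FPKM in the sgNTG libraries.

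By level, per length of transcript, the order in the sgNTG libraries was ENSG00000285976 at 160 ± 4.08 FPKM, POC1B at 41.2 ± 0.997 FPKM, GALNT4 at 38.5 ± 1.69 FPKM, PTP4A1 at 13.3 ± 9.52 FPKM and POC1B-GALNT4 at 2.81 ± 0.600 FPKM (SD, n = 2 each). POC1B and GALNT4 stood next to each other, and their libraries did not overlap with sgNTG or sg2 but did with sg1. In the sg2 libraries PTP4A1 was first at 146 ± 9.14 FPKM and ENSG00000285976, at 28.2 ± 7.12 FPKM, lay below POC1B and GALNT4. Over the 6 libraries, the log2 range of PTP4A1 was 4.35, and 1 of the 8887 tested genes, RPL36A-HNRNPH2, had a wider one. ENSG00000285976 ranged over 2.76 (11 genes wider) and POC1B-GALNT4 over 1.45 (74 genes wider). These ranges take in the values that chose the loci, so nothing is read from the ranks. POC1B at 0.155 and GALNT4 at 0.144 ranged over less than the median gene at 0.266.

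The table held 66 pairs of tested genes on the same strand that share at least 50% of the exon bases of the smaller gene, and the log2 ratio of the genes in a pair was followed over the 6 libraries as a description. Its range was 7.12 for PTP4A1 and ENSG00000285976, the widest of the 66, against a median of 1.1. The log2 sum of the pair ranged over 0.139, the fifth narrowest, against a median of 0.269. For GALNT4 and POC1B-GALNT4 the ratio ranged over 1.59 (rank 25) and the sum over 0.109, the third narrowest. These ranks were not matched for level: the pairs take in genes from a mean of 1 FPKM up, far below the PTP4A1 pair. They also rest on the values that chose the loci, and they support nothing about either pair. A total of 39 pairs (59.1%) had a ratio range above 1, and in 38 pairs the sum ranged over less than either gene.

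Opposite differences of more than 1 each on the log2 scale were counted among these pairs. Between sg2 and sgNTG such differences were seen in 2 pairs (3.03%), that of PTP4A1 and that of TMED7-TICAM2 and TICAM2. Between sg2 and sg1 only the PTP4A1 pair of the 66 showed them (1.52%), and between sg1 and sgNTG 0 pairs did (0.0%). These values chose the PTP4A1 pair and support nothing about it.

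The pairs next to it in ratio range differed in which libraries stood apart. TICAM2, an adaptor of Toll-like receptor signalling, measured 12.6 and 15.5 FPKM in the sg2 libraries, 0.326 and 11.3 FPKM in the sg1 libraries, and 0.557 and 11.2 FPKM in the sgNTG libraries. The readthrough TMED7-TICAM2 measured 3.75 and 1.97 FPKM in the sg2 libraries, 15.4 and 2.14 FPKM in the sg1 libraries, and 15.3 and 4.64 FPKM in the sgNTG libraries. In that pair replicate 1 stood apart from replicate 2 with sg1 and with sgNTG. ENSG00000285238, which shares exon with the ribosome biogenesis gene NOP2, was at 15.5 FPKM in sg1 replicate 1 and 3.56 FPKM in sg2 replicate 1 and was listed at 0 in the other 4. RPL36A-HNRNPH2 was at 29.4 FPKM in sg1 replicate 2 and at most 0.0921 FPKM elsewhere, while HNRNPH2, which encodes a splicing factor, stayed between 48.7 and 52.9 FPKM in all 6.

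**Figure D4:**
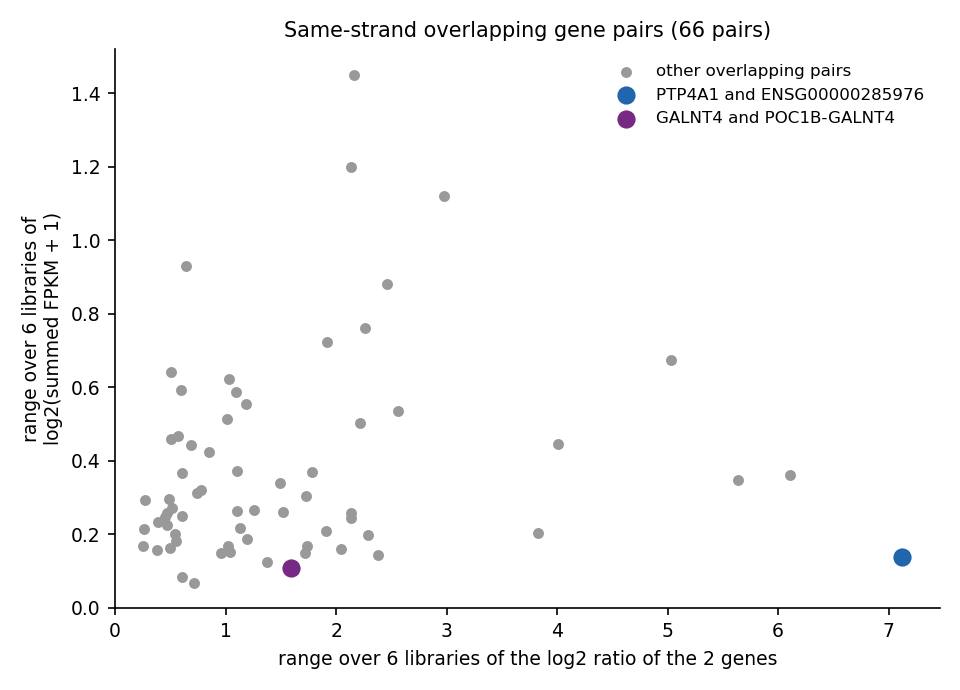
Range over 6 libraries of the log2 ratio of the genes (horizontal axis) and of the log2 summed FPKM (vertical axis) for 66 overlapping gene pairs, 1 point each. PTP4A1 with ENSG00000285976 lies at 7.12 and 0.139, and GALNT4 with POC1B-GALNT4 at 1.59 and 0.109.

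Genes around the loci were looked at in the same fit. Within 1 Mb of the PTP4A1 locus the table listed 20 other genes, of which 4 reached the tested level and 8 were at 0 in all libraries, and around the POC1B-GALNT4 locus 25, of which 7 were tested. Of these 11 tested neighbours limma called 0 in each of the 3 comparisons at an adjusted p of 0.05. At an unadjusted p under 0.05 it was 1 of 11 between sg2 and sgNTG, 4 of 11 between sg2 and sg1, and 1 of 11 between sg1 and sgNTG, against 9.61%, 17.0% and 9.92% of all tested genes.

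The nearest tested gene on each side of the PTP4A1 locus was the pseudogene ENSG00000218048, at 78166 bases upstream, and the antisense RNA SCAT8, at 223249 bases downstream. ENSG00000218048 measured 3.07 and 2.71 FPKM in the sg2 libraries, 2.27 and 2.86 FPKM in the sg1 libraries, and 2.53 and 3.16 FPKM in the sgNTG libraries, and SCAT8 measured 1.31 to 2.22 FPKM over all 6. Both had overlapping groups. LGSN, farther out than ENSG00000218048 at 201769 bases and named after its values were seen, measured 13.5 and 12.6 FPKM in the sg2 libraries, 11.7 and 10.6 FPKM in the sg1 libraries, and 11.6 and 12.8 FPKM in the sgNTG libraries. Its log2 difference between sg2 and sg1 was 0.21 (SE 0.0775, limma adjusted p = 0.243). PHF3, a further gene, was not analysed here.

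Beside POC1B, at 66447 bases, lies DUSP6, a phosphatase that switches off ERK kinases. DUSP6 measured 81.8 and 81.6 FPKM in the sg2 libraries, 72.4 and 72.7 FPKM in the sg1 libraries, and 69.7 and 69.9 FPKM in the sgNTG libraries. Its log2 difference was 0.22 (SE 0.0329, limma adjusted p = 0.157) between sg2 and sgNTG and 0.17 (limma adjusted p = 0.0757) between sg2 and sg1, in which it passed at an adjusted p of 0.0453 when only genes with a mean of 5 FPKM entered the limma fit. The antisense RNA ENSG00000274021 lies at the same distance and measured 0.797 to 1.55 FPKM over the 6 libraries.

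On the other side of that locus the antisense RNA ENSG00000258302, at 34867 bases, measured 5.36 and 5.14 FPKM in the sg2 libraries, 3.87 and 3.50 FPKM in the sg1 libraries, and 5.31 and 4.43 FPKM in the sgNTG libraries. Its log2 difference between sg2 and sg1 was 0.42 (SE 0.0972, limma adjusted p = 0.111), the highest of the 11 neighbours in any comparison. The gene of the plasma membrane calcium pump ATP2B1, farther out at 61787 bases, differed by 0.16 between sg2 and sg1 (limma adjusted p = 0.164). POC1B-AS1, which overlaps the 5′ end of POC1B on the other strand, was at 1.06 to 1.43 FPKM, and ENSG00000266680, which overlaps the start of ENSG00000285976 on the other strand, at most at 0.624 FPKM. The strand setting of the authors' quantification is not given in the sources used here, so reads of these antisense genes and of the loci may not have been told apart.

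**Figure D5:**
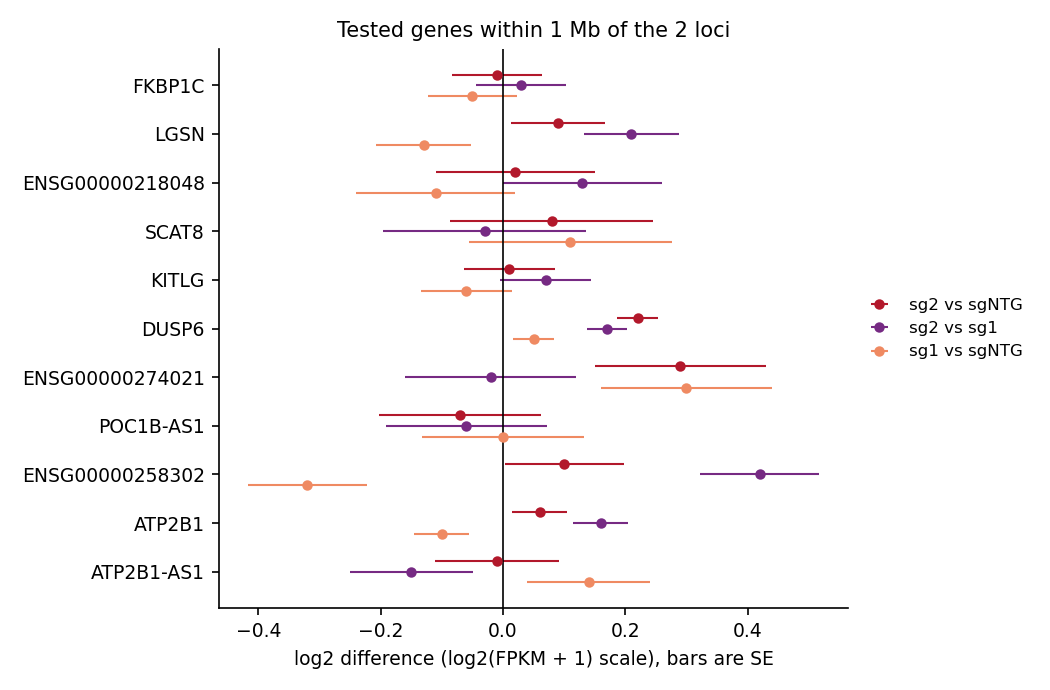
Log2 differences of the 11 tested genes within 1 Mb of either locus (horizontal axis, log2(FPKM + 1) scale, bars are SE) between sg2 and sgNTG, sg2 and sg1, and sg1 and sgNTG. All lie between -0.32 and 0.42, and 0 passed limma at an adjusted p of 0.05.

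Copies elsewhere in the genome stayed low. The pseudogenes of PTP4A1 numbered 1 to 7 in the table reached at most 0.209 FPKM, and 4 of the 7 were listed at 0 throughout. The paralog PTP4A3 averaged 0.827 FPKM, below the tested level, and PTP4A2 was not analysed here, while its pseudogene PTP4A2P1 measured 4.84 to 6.54 FPKM.

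Genes that act with these proteins were taken from 3 lists. Of 9 genes of the PTP4A family and its partners, 7 were in the table used here and 5 besides PTP4A1 were tested. Of 28 GALNT and core O-glycan genes, 14 were in it and 9 besides GALNT4 were tested, and of 20 centriole genes 10 were in it and 9 besides POC1B were tested. The remaining list genes were not analysed here. Limma called 0 of these 23 genes in each of the 3 comparisons, and at an unadjusted p under 0.05 it was 1 of 23 between sg2 and sgNTG, 4 of 23 between sg2 and sg1, and 2 of 23 between sg1 and sgNTG, against the same shares of all genes. The median log2 difference between sg2 and sgNTG was -0.046 for the PTP4A list, -0.093 for the O-glycan list and 0.018 for the centriole list, against 0.006 over all tested genes. Between sg2 and sg1 the medians were 0.000, -0.066 and 0.060 in the same order of lists, against 0.002 over all genes. Between sg1 and sgNTG they were -0.046, -0.015 and -0.029, against 0.007 over all genes.

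In the list of PTP4A partners, CNNM1 to CNNM4, the magnesium transport proteins, and ARL15, a small GTPase that binds them, differed by at most 0.18 on the log2 scale in size in any comparison. Among the GALNT genes tested besides GALNT4, the highest means were those of GALNT7 at 22.7 FPKM, GALNT11 at 16.8 FPKM and GALNT13 at 15.6 FPKM, all below GALNT4 at 39.4 FPKM over the 6 libraries. C1GALT1C1, the chaperone of the enzyme that extends O-glycans, measured 22.9 and 22.5 FPKM in the sg2 libraries, 22.8 and 22.6 FPKM in the sg1 libraries, and 26.6 and 26.0 FPKM in the sgNTG libraries. Both guides lay below sgNTG, with log2 differences of -0.20 (limma adjusted p = 0.310) for sg2 and -0.21 (limma adjusted p = 0.284) for sg1. GALNT12 differed by 0.23 between sg2 and sg1 (limma adjusted p = 0.232).

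In the centriole list, POC1A, the paralog of POC1B, averaged 1.81 FPKM against 41.7 FPKM for POC1B, and differed by 0.24 between sg1 and sgNTG (limma adjusted p = 0.544). PLK4, the kinase that starts centriole duplication, differed by -0.24 between sg2 and sgNTG (limma adjusted p = 0.550). CETN3, a centrin, differed by 0.24 between sg2 and sg1 (limma adjusted p = 0.200). FAM161A, a ciliary protein, differed by -0.27 between sg1 and sgNTG (limma adjusted p = 0.506). None of these passed the test.

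Likeness was measured as Pearson's r of log2(FPKM + 1) over the 6 libraries with each of 8886 other tested genes, and with 6 libraries many genes reach a high r. For PTP4A1, 107 genes had an r above 0.9 and 58 below -0.9. The most alike were SLC6A15 (r = 0.998), ELOVL4 (0.991) and CLDN1 (0.990), and the most opposed were TXNDC15 (-0.991), ENSG00000240036 (-0.991) and SNORA66 (-0.990). SLC6A15 itself measured 23.0 FPKM in both sg2 libraries, 22.0 and 22.6 FPKM in the sg1 libraries, and 20.7 and 21.6 FPKM in the sgNTG libraries, a far narrower range.

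For ENSG00000285976 the most alike were THADA (r = 0.993), CHGA (0.993) and DAZAP1 (0.992), out of 95 genes above 0.9, and the most opposed were DUSP6 (-0.989), KBTBD7 (-0.989) and GARS1 (-0.988), out of 139 below -0.9. For POC1B-GALNT4 the most alike were RPL26P19 (r = 0.993), RPL7AP50 (0.993) and EEF1A1P6 (0.990), which are pseudogenes of the translation machinery, and the most opposed TRA2B (-0.997), PHLDA1 (-0.997) and STARD4 (-0.997). Some 226 genes lay above 0.9 and 287 below -0.9 for it. All of these points share the same 6 libraries and the same scaling.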

How the data were processed

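RNA was sequenced from 6 libraries of NCI-H460 cells, 2 per guide, and, per the labels' protocols, mRNA was taken up on capture beads. The submitters' processing notes name STAR, StringTie and build hg38. Versions, annotation and strandedness were not given in the sources used here. What the authors deposited is gene-level FPKM values, which scale fragments by transcript length and library total; read counts were not recovered, so absolute depth is unknown and no interval for counting error is given. StringTie assembles transcripts and estimates their levels, so reads that fit several models are divided by estimate.

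Rows that repeated the same name and values were kept once, and tests covered the 8887 genes that averaged 1 FPKM or more. Of the 52034 rows kept, 47729 matched a GENCODE 29 gene. Exon structures come from that release, which may not be the authors' annotation. Tests used limma 3.58.1 in R 4.3.3 (lmFit, eBayes with a variance trend, two-sided) on log2(FPKM + 1), which understates differences of low genes, with 1 mean per group and Benjamini-Hochberg adjustment over all tested genes at 0.05. The fit was also run on simulated data. There the spread was shuffled across genes, so that run does not vouch for the fit on these data. The genes and lists were chosen with earlier results of these data known, so values of the 5 genes in comparisons with sg2 are given as descriptions, without p, and their calls there follow from the choice. Named genes were the 5, the nearest tested neighbours, the 2 list genes of largest difference per comparison, paralogs, up to 3 genes of highest and lowest r, and up to 4 other pairs. Alternatives were another pseudocount (0.1), no filter, a filter at 5 FPKM, no variance trend, median-of-ratios scaling, a replicate block, each library left out in turn, length-weighted sums and pairs sharing at least 10%.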

Additional observations from a re-analysis of the deposited data

Results flagged for a closer look

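Several genes had the libraries of sg2 and of sg1 on opposite sides of both sgNTG libraries. This holds for 744 of the 8887 tested genes (8.37%), and 39 genes were looked at here. POC1B-GALNT4 was below sgNTG with sg2 and above it with sg1, a log2 difference between sg2 and sg1 of -1.18, one of the values that chose the gene and given as a description. For the others the difference between the guides did not pass limma. ATP2B1 differed by 0.16 (limma adjusted p = 0.164), CNNM1 by -0.15 (limma adjusted p = 0.534), GALNT11 by -0.07 (limma adjusted p = 0.543), GALNT12 by 0.23 (limma adjusted p = 0.232) and GALNT7 by -0.15 (limma adjusted p = 0.254).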

How the results depend on the processing

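The counts of called genes changed most with the settings. Between sg2 and sgNTG the count was 0 with no filter, with no variance trend, with median-of-ratios scaling and with the replicate block, and 0 to 5 with each library left out, against 2 as reported. Between sg2 and sg1 it was 0 with no filter and with no variance trend, 217 with the filter at 5 FPKM and 5 with the replicate block, and 4 to 26 with a library left out, against 115. Between sg1 and sgNTG it was 0 with no filter, no variance trend or the replicate block, and 1 to 6 with a library left out, against 1. The passing of ENSG00000285976 between sg2 and sgNTG was lost under those 4 settings and without either library of sg1 or of sgNTG, and between sg2 and sg1 under no filter, no variance trend, the replicate block and without either library of sg1. POC1B-GALNT4 passed between sg2 and sg1 with the other pseudocount and the other scaling, and in 0 of the 6 fits that left out a library. Libraries with the same replicate number shared little deviation: their deviations from the group means correlated at 0.0603, -0.0276 and 0.0343 across genes. Whether same-numbered libraries were processed together cannot be read from this. Over the alternatives, the limma adjusted p between sg1 and sgNTG ran from 0.204 to 0.635 for PTP4A1 and from 0.304 to 0.776 for ENSG00000285976, and 0 of the 5 genes passed in any. The 1 neighbour that passed, DUSP6 between sg2 and sg1, needed the 5 FPKM filter, under which POC1B-GALNT4 gives no value.

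The log2 difference of PTP4A1 between sg2 and sgNTG was 2.81 without sgNTG replicate 1 and 4.29 without sgNTG replicate 2, and that between sg1 and sgNTG ran from 1.30 to 2.78. ENSG00000285976 ran from -2.74 to -2.24 between sg2 and sgNTG and from -2.21 to -1.71 between sg2 and sg1 over all alternatives. With a pseudocount of 0.1, POC1B-GALNT4 differed by -1.06 between sg2 and sgNTG and by -1.63 between sg2 and sg1. The log2 difference of the PTP4A1 locus sum between sg2 and sgNTG was 0.0499 with length weights. That of the POC1B-GALNT4 locus sum, with sg1 libraries left out in turn, ran from 0.0258 to 0.0706 between sg2 and sg1 and from -0.0107 to 0.0342 between sg1 and sgNTG. With pairs sharing at least 10% of exon, opposite movement was seen in 1.41% of 142 pairs between sg2 and sgNTG and in 0.704% between sg2 and sg1. The cause of these changes was not tested. With 2 libraries per group and no read counts, precision is limited.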
